A study of Mus musculus with 15 samples.

Results

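The structural protein genes of the epidermal differentiation complex were examined in skin of mice that lack OTULIN in keratinocytes. The set was taken from the count table by gene symbol: every Sprr and Lce gene with a number in its name, and Lor, Ivl, Flg, Flg2, Hrnr, Rptn, Tchh, Tchhl1, Crct1 and Crnn. It held 48 of 55487 genes, of which 46 carried their symbol in the table and 2 (Flg2 and Sprr2c-ps) had a blank symbol there and were matched by Ensembl identifier. Of the 48 genes, 43 reached 10 counts over the 15 libraries and were tested, among 20292 such genes in the whole table. In 2 of the 5 lesional libraries (lesional 2 and 11), Sprr1b and the tested Sprr2 and Lce3 genes lay above all other libraries, and Lor, Flg2 and Lce1m lay below all of them. This pair was the highest for 26 of the 43 genes (60.5%), against 7.94% of all genes tested. It was the lowest for 3 of the 43 (6.98%), close to the 5.07% of all genes tested. None of the tested genes passed an adjusted p of 0.05 in any comparison of the edgeR fits, and the counts at an unadjusted p are given with each comparison.

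All mice were 3 weeks old. The WT group (5 libraries, replicates 1, 4, 7, 10 and 13) was skin of Otulin fl/fl littermates without Cre. The other groups were skin of Otulin fl/fl K14-Cre mice, called OTULIN E-KO or OTULIN-KO, in which Cre is driven by the keratin 14 promoter and removes OTULIN, a deubiquitinase that trims linear ubiquitin chains, from keratinocytes and leaves it in the other cells of the skin. Their skin was sampled where no lesion was seen (non-lesional, 5 libraries, replicates 3, 6, 9, 12 and 15) and in affected skin (lesional, 5 libraries, replicates 2, 5, 8, 11 and 14). Lesions in these mice are small foci, so the share of lesion in a sample may vary. Whether a mouse gave both kinds of sample is not given in the sources used here, so the groups were treated as unpaired. The 5 samples of a group are described in the study as those of 5 mice.

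Keratinocytes that leave the basal layer stop dividing and build the cornified envelope, a shell of cross-linked protein under the plasma membrane that gives the skin its barrier. Most of its building blocks are encoded side by side in the epidermal differentiation complex. Involucrin (Ivl) is an early scaffold, loricrin (Lor) the most abundant component, and the small proline-rich proteins (Sprr) act as cross-bridges between other components. Late cornified envelope proteins (Lce) are added last, and fused S100-type proteins such as filaggrin (Flg) bundle keratin filaments or serve the hair follicle. Transglutaminases join these proteins. In inflamed or wounded skin, Sprr1, Sprr2 and Lce3 genes are known to be induced, while Lor, Flg2 and Lce1 genes mark the ordinary course of cornification.

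Transcripts were measured with QuantSeq libraries, in which each polyadenylated RNA is read from its 3′ end, so that counts need no correction for length. Values are CPM, counts scaled to 1000000 per library with TMM-normalized library sizes. Library totals ran from 1962604 to 2567138 counts, 1 count was worth 0.376 to 0.513 CPM, and a count of 0 allows 1.13 to 1.54 CPM (3 counts, counting error only). The 48 genes together took 0.707% to 1.15% of a library. Otulin itself was at 12.3 to 28.3 CPM in WT, 21.3 to 30.6 in non-lesional and 19.0 to 27.1 in lesional libraries, with a log2 fold change against WT of 0.18 (standard error (SE) 0.20) and 0.10 (SE 0.22). Otulin therefore did not separate the groups in whole skin, and WT, non-lesional and lesional stand below for the labels of the libraries.

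The 48 genes lay on chromosome 3 of GRCm38 from 92080271 to 93471980, a span of 1392 kb. Lor came first, followed by the Sprr2 genes, the Sprr1, Sprr3 and Sprr4 genes, Ivl, Lce6a and the Lce1 genes, the Lce3 genes, Crct1, Lce1m and the S100-fused genes Crnn, Flg2, Flg, Hrnr, Rptn, Tchh and Tchhl1. RefSeq promoters (GRCm38.p6, 250 bases before to 50 bases after the start, 300 in all) were matched for 43 of the 48 genes, and none was matched for Sprr2c-ps, Sprr2g, Sprr2j-ps, Lce1f and Crct1. AP-1, the Jun and Fos transcription factor, is known to act on several of these promoters, and its core letters were searched as TGANTCA on both strands. They stood in 16 of 43 promoters of the complex (37.2%) and in 7.81% of all 32851 promoters. By family they stood in 7 of 10 Sprr2 promoters, in the promoters of Sprr1a, Sprr1b, Lor, Ivl, Crnn, Flg2, Flg, Rptn and Tchhl1, in 0 of 14 promoters of Lce1 and Lce6a and in 0 of 6 Lce3 promoters. TATAAA, the TATA box, searched on both strands, stood in 20 of 43 (46.5%) against 13.6% of all promoters, and GGGNGTG, a KLF-type motif, in 4 of 43 (9.3%) against 29.2%. The letters of these 3 motifs do not contain one another, and neighbouring promoters share ancestry, so these counts are a description.

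5 promoters are shown because the results turn on these genes: Sprr2d, Sprr1b and Lce3e were highest in the same libraries in which Lor and Lce1m were lowest. Each is written 5′ to 3′ on the strand of its gene, with TGANTCA in capitals. The windows are chr3:92338890-92339189 (plus strand) for Sprr2d, chr3:92438730-92439029 (minus) for Sprr1b, chr3:92966811-92967110 (plus) for Lce3e, chr3:92083093-92083392 (minus) for Lor and chr3:93019012-93019311 (minus) for Lce1m.
Sprr2d: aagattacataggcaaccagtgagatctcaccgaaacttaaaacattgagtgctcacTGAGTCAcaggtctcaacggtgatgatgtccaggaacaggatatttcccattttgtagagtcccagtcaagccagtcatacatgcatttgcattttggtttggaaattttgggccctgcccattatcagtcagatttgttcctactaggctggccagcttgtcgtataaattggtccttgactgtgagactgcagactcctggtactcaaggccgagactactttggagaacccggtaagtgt
Sprr1b: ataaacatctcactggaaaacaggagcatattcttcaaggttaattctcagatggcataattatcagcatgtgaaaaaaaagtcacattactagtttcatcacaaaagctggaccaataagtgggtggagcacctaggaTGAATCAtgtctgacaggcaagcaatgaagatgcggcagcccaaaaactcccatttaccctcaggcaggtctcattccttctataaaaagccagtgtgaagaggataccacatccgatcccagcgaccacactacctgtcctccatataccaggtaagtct
Lce3e: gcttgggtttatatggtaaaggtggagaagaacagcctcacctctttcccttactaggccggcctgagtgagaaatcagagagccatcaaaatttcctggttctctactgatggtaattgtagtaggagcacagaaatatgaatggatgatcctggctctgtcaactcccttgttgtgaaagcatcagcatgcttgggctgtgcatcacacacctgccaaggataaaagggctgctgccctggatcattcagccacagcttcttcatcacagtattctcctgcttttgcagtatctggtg
Lor: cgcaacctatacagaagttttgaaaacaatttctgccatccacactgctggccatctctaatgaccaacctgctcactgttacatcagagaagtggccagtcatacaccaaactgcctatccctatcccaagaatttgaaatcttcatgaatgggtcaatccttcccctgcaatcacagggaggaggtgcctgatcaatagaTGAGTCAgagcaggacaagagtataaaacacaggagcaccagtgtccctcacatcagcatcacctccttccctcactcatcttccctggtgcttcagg
Lce1m: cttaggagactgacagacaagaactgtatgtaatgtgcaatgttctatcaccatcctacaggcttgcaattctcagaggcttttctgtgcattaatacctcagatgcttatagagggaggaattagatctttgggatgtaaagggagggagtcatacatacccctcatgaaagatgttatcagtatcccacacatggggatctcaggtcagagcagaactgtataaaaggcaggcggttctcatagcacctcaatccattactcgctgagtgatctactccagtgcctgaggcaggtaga
The match begins at base 58 of the 300 in Sprr2d, base 140 in Sprr1b and base 203 in Lor, and the windows of Lce3e and Lce1m hold none. These 5 windows were picked for the values of their genes, and a relation between the AP-1 letters and the levels was not tested.

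Across the 3 comparisons, no gene of the complex reached an adjusted p under 0.05 (0 of 43 in each, edgeR's quasi-likelihood test with Benjamini-Hochberg adjustment over 20292 genes), and neither did any other gene (0.0% of 20292 in each comparison). An unadjusted p under 0.05 was reached by 718 genes of the table in non-lesional against WT, 1032 in lesional against WT and 880 in lesional against non-lesional skin. DESeq2's Wald test called 3 genes of the table in non-lesional against WT, 14 in lesional against WT and 0 in lesional against non-lesional skin, none of them in the complex. The values of the 2 groups compared overlapped for all 43 genes, where 0.572%, 0.68% and 0.636% of all genes tested did not overlap in the same order of comparisons. The spread inside the lesional group is what the values below describe: the lesional libraries 2 and 11 stood apart from the lesional libraries 5, 8 and 14. They were the 2 highest of the 15 libraries for 26 of the 43 genes (60.5%; 7.94% of all genes tested), 4 of which passed the filter on low counts only through these lesional libraries, and the 2 lowest for Lor, Lce1m and Flg2 (6.98%; 5.07% of all genes). Lesional 2 and lesional 11 carry the same label as the other lesional libraries and were kept in every comparison, and each comparison with lesional skin was also run without both. The 2 libraries are singled out for their values in these same genes. Leaving them out therefore favours the opposite direction for the genes in which they were high or low. Values without them are given as sizes. Counts of genes at an unadjusted p without them, given among the settings at the end, are no test of a change.

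**Figure D1:**
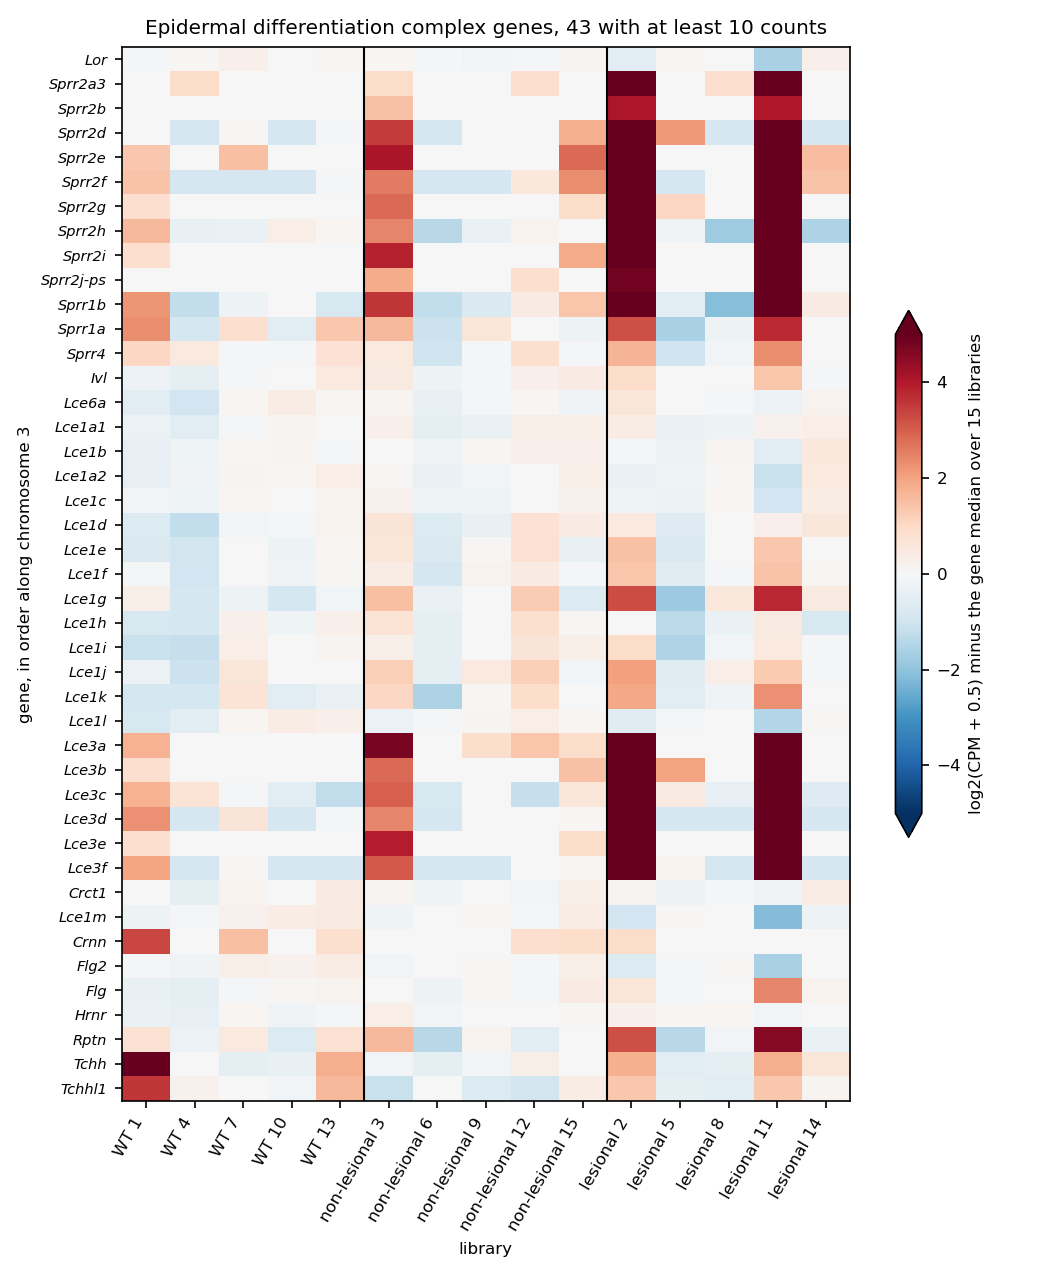
Heatmap of the 43 tested genes (rows, in order along chromosome 3) in the 15 libraries (columns, by group). Colour is log2(CPM + 0.5) minus the median of the gene over the 15 libraries, cut at 5 on either side (30 values lie past it). The Sprr2 and Lce3 blocks stand out in lesional 2 and lesional 11 and, more weakly, in non-lesional 3.

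The Sprr2 genes, 13 in number, lie in tandem next to Lor, and 9 of them reached 10 counts. Sprr2d had 0.385, 0, 0.450, 0 and 0.376 CPM in WT replicates 1, 4, 7, 10 and 13, and 9.76, 0, 0.412, 0.401 and 2.63 in non-lesional replicates 3, 6, 9, 12 and 15. In lesional replicates 2, 5, 8, 11 and 14, Sprr2d had 276, 3.59, 0, 399 and 0. Lesional 2 and 11 were thus far above every other library, non-lesional 3 followed, and lesional 8 and 14 had no count. Summed over the group, Sprr2d had 1415 counts in lesional and 3 in WT libraries, a depth-corrected ratio of 534.5 (95% counting interval 182.5 to 2595), which rests on lesional 2 with 611 and lesional 11 with 797 counts.

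The other tested Sprr2 genes, Sprr2a3 excepted, had lesional 2, lesional 11 and non-lesional 3 as their 3 highest libraries. Sprr2h was the member with the highest level in WT skin, at 17.3, 3.93, 4.05, 6.76 and 5.63 CPM, and had 30.6, 1.70, 4.12, 6.01 and 5.27 in non-lesional libraries. In lesional libraries Sprr2h had 263, 4.62, 1.20, 468 and 1.46 CPM, so that lesional 8 and 14 lay below all 5 WT libraries. Its log2 fold change was 4.27 (SE 1.68, unadjusted p = 0.0337) against WT and -1.69 without lesional 2 and 11. Sprr2e had 161 and 259.5 CPM in lesional 2 and 11 and at most 7.99 elsewhere, and Sprr2f had 168 and 286 with at most 4.88 elsewhere. Sprr2i had 78.6 and 87.7 CPM there, with 6.66 in non-lesional 3 and at most 1.32 in the remaining libraries. Sprr2g, annotated as a polymorphic pseudogene, had 51.9 and 83.7 CPM there and at most 3.11 elsewhere. The libraries ranked below these 3 differed between members: WT 1 ranked 4 of 15 for Sprr2h and 9 for Sprr2d.

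Sprr2a3, Sprr2b and Sprr2j-ps were lower. Sprr2a3 had 51 and 110 counts in lesional 2 and 11 and 0 or 1 in each of the other 13 libraries; 80.1% of the 50-base stretches at its 3′ end also occur in other transcripts, so reads from copies may be missing or misplaced. Sprr2b, the only tested Sprr2 gene with a higher level in lesional 2 (7.68 CPM) than in lesional 11 (7.51), had 17 and 15 counts there and 0 in WT, at least 12.1-fold higher in the lesional group when 3 counts over the WT group are taken as the floor. Sprr2j-ps had 30 and 48 counts there and 0 in WT, at least 29.5-fold higher on the same floor. Sprr2b and Sprr2j-ps passed the filter on low counts only through lesional 2 and 11, so a high ratio was favoured in advance. Neither gene had a count in lesional 5, 8 and 14, and these bounds leave out the spread between libraries. Sprr2k had 2 and 5 counts there and 0 in all other libraries. No count was recorded for Sprr2a1 and Sprr2a2, whose 3′ ends match each other and Sprr2a3 over 100% of such stretches and cannot hold uniquely mapped reads, and none for Sprr2c-ps. Summed over the 13 genes, Sprr2 transcripts were at 1043 CPM in lesional 2 and 1674 in lesional 11, at 65.7 in non-lesional 3, at 21.2 in WT 1 and at 1.70 to 16.7 in the other 11 libraries.

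The 6 Lce3 genes, which lie further along the complex, beyond the Lce1 genes, had nearly the same pattern. Lce3e had 0.385, 0, 0, 0 and 0 CPM in WT, 7.10, 0, 0, 0 and 0.439 in non-lesional and 66.0, 0, 0, 102 and 0 in lesional libraries. It had 146 and 204 counts in lesional 2 and 11 and 0 in the other 3 lesional libraries. Lce3a had 89.0 and 126 CPM in lesional 2 and 11 and 12.9 in non-lesional 3, and Lce3b had 76.3 and 87.2 with 3.11 in non-lesional 3. Both were at most 1.54 CPM in the remaining 12 libraries. Lce3f had 89.0 and 119 CPM in lesional 2 and 11, 7.10 in non-lesional 3 and 3.08 in WT 1. Lce3d had 82.2 and 123 CPM there, and 42.2% of the stretches at its 3′ end are shared with other Lce3 genes. Lce3c was the member with the highest level in WT skin, at 12.3, 5.68, 3.15, 2.11 and 1.13 CPM, and had 157, 4.62, 2.40, 308 and 1.95 in lesional libraries. The summed Lce3 level was 560 CPM in lesional 2, 865 in lesional 11, 64.4 in non-lesional 3, 21.2 in WT 1 and 1.50 to 7.90 in the other 11.

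Non-lesional 3 came next after lesional 2 and 11, above the other 12 libraries in both CPM and counts, for 13 of the 15 tested Sprr2 and Lce3 genes, and for 16 of the 43 genes in all. The exceptions among the 15 were Sprr2a3, with 1 count in each of 4 libraries, and Lce3d, with 10 counts in both non-lesional 3 and WT 1. Counts in it were small, for example 22 for Sprr2d, 16 for Lce3e and 29 for Lce3a. Between non-lesional and WT libraries, the log2 fold change of Sprr2h was 0.30 (SE 0.80), and without non-lesional 3 it was -0.83. The value for Sprr2h between non-lesional and WT skin thus turned on 1 library.

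**Figure D2:**
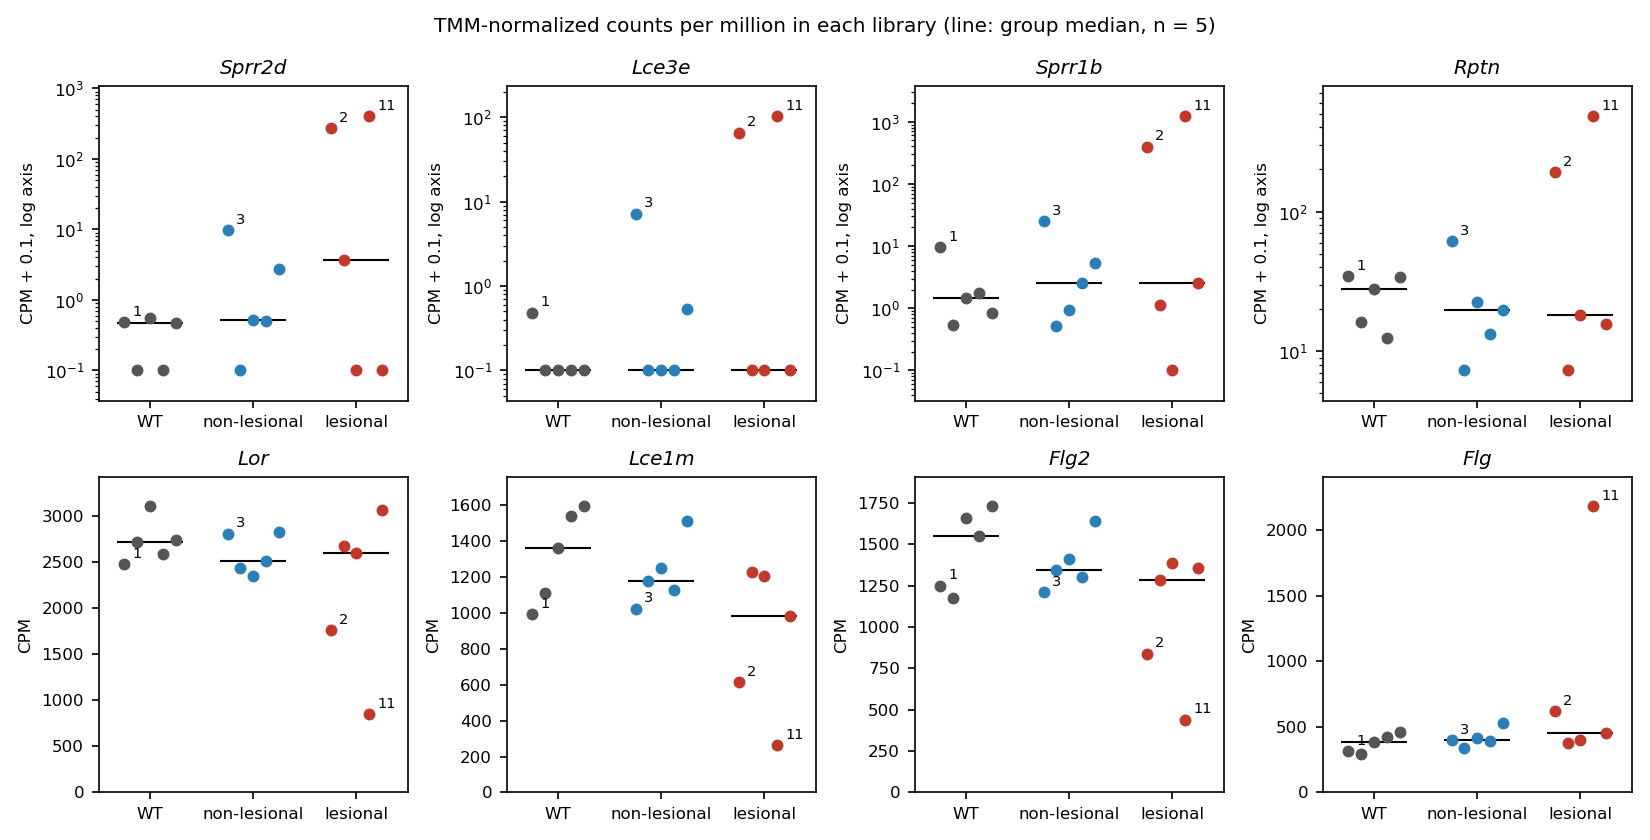
CPM of 8 genes in each library by group, with a line at the group median (n = 5). The upper row (Sprr2d, Lce3e, Sprr1b, Rptn) shows CPM + 0.1 on a log axis, the lower row (Lor, Lce1m, Flg2, Flg) CPM from 0. The numbers beside points mark WT 1, non-lesional 3, lesional 2 and lesional 11; the last 2 are the highest points of the upper row and of Flg, and the lowest of Lor, Lce1m and Flg2.

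Sprr1b and Sprr1a, both cross-bridging proteins known from stressed skin, differed in how much was present outside lesional 2 and 11. Sprr1b had 9.62, 0.437, 1.35, 1.69 and 0.751 CPM in WT, 25.3, 0.425, 0.824, 2.40 and 5.27 in non-lesional and 398, 1.03, 0, 1213 and 2.44 in lesional libraries. It was near the floor in most libraries, and its log2 fold change was 6.80 (SE 2.31, unadjusted p = 0.0182) against WT and -1.33 (SE 1.09) without lesional 2 and 11. Sprr1a had 471, 50.2, 168, 62.5 and 237 CPM in WT, 289, 43.8, 142, 93.7 and 79.0 in non-lesional and 888, 30.3, 78.7, 1242 and 93.5 in lesional libraries. The WT libraries themselves ran from 50.2 to 471 CPM in Sprr1a, and its log2 fold change of 1.24 against WT had an SE of 1.13. Sprr4 had at most 4.51 CPM, in lesional 11, and Sprr3, a gene known from oral and oesophageal epithelium, had 0 counts in all 15 libraries.

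Lor had the highest mean level of the members, although in lesional 11 Flg, Sprr1a and Sprr1b were above it. Lor had 2477, 2719, 3110, 2590 and 2739 CPM in WT, 2811, 2437, 2354, 2518 and 2829 in non-lesional and 1762, 2679, 2598, 853 and 3066 in lesional libraries. Lesional 2 and 11 lay below all other libraries, while lesional 5, 8 and 14 lay within the range of WT. The log2 fold change was -0.32 (SE 0.26) against WT and 0.02 (SE 0.15) without lesional 2 and 11.

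Lce1m, which lies beside Crct1 at the far end of the Lce genes, and Flg2, a filaggrin-like protein of the uppermost layers, were low in the same libraries. Lce1m had 993, 1113, 1362, 1542 and 1596 CPM in WT and 615, 1228, 1206, 264 and 983 in lesional libraries. Flg2 had 1249, 1173, 1657, 1552 and 1730 CPM in WT and 838, 1283, 1385, 440 and 1357 in lesional libraries. Their log2 fold changes against WT were -0.62 (SE 0.36) for Lce1m and -0.47 (SE 0.26) for Flg2, and -0.22 (SE 0.17) and -0.14 (SE 0.16) without lesional 2 and 11. In non-lesional skin, Lce1m was between 1024 and 1515 CPM and Flg2 between 1209 and 1641, within the range of WT.

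Flg, the gene of filaggrin next to Flg2, went the other way in lesional 11. It had 312, 293, 382, 420 and 459 CPM in WT, 396, 338, 413, 389 and 527 in non-lesional and 618, 380, 402, 2182 and 453 in lesional libraries. Lesional 11 thus held the most Flg and the least Flg2 of the 15 libraries, and lesional 2 the second most and the second least. The log2 fold change of Flg was 1.12 (SE 0.53, unadjusted p = 0.0639) against WT and 0.13 (SE 0.16) without both libraries. Rptn (repetin), another S100-fused protein, had 34.2, 16.2, 27.9, 12.3 and 34.2 CPM in WT and 191, 7.19, 18.0, 479 and 15.6 in lesional libraries. An exon of Rptn overlaps Gm37857 on the same strand, and reads over both are counted for each. Without lesional 2 and 11, its log2 fold change against WT went from 2.51 (SE 1.17) to -0.87.

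Ivl had 86.2, 76.4, 98.5, 105 and 146 CPM in WT, 143, 87.2, 99.3, 125 and 139 in non-lesional and 201, 105, 102, 272 and 101 in lesional libraries. Only lesional 2 and 11 lay above the WT and non-lesional ranges, and the log2 fold change of Ivl against WT was 0.61 (SE 0.30) with and -0.01 (SE 0.18) without them. Hrnr (hornerin) was at 134 to 193 CPM in WT, 163 to 229 in non-lesional and 166 to 214 in lesional libraries. Crct1 was at 381 to 729 CPM in WT, 455 to 641 in non-lesional and 446 to 684 in lesional libraries. In these 2 genes the lesional values lay inside or close to the ranges of the other groups, with log2 fold changes against WT of 0.22 (SE 0.14) for Hrnr and -0.04 (SE 0.17) for Crct1.

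The 15 genes of the Lce1 and Lce6a group differed among themselves. The abundant genes at the start of the cluster had similar levels in all groups, with medians of 421, 542 and 524 CPM for Lce1a1 in WT, non-lesional and lesional libraries. For Lce1b, Lce1c, Lce1a2, Lce1l and Lce1m, lesional 11 was the lowest of the 15 libraries, at 168 CPM for Lce1b and 191 for Lce1a2 against 189 to 365 and 310 to 590 in the rest. Over the whole complex, lesional 11 was the lowest for 7 of 43 genes (16.3%), near the 16.2% of all genes tested. For Lce1e, Lce1f, Lce1g, Lce1j and Lce1k, which lie between these, lesional 2 and 11 were the highest pair. They were the highest pair for 7.94% of all genes tested. Lce1g, the member of this group with the largest ratio and picked here after its values were seen, had 8.08, 3.49, 5.40, 3.38 and 6.01 CPM in WT and 67.8, 1.54, 9.59, 96.7 and 9.25 in lesional libraries. The genes highest in lesional 2 and 11 therefore lay in the middle of the cluster, and those lowest in lesional 11 towards its ends. This order is a description and was not tested. Several Lce1 genes share part of their 3′ ends, up to 32.7% of stretches for Lce1b and 27.1% for Lce1j, while Lce1f, Lce1g, Lce1l and Lce1m share none.

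Tchh (trichohyalin) and Tchhl1 belong to the inner root sheath and medulla of the hair. Tchh had 957, 29.3, 21.1, 22.4 and 105 CPM in WT, 26.6, 21.3, 26.4, 35.6 and 29.9 in non-lesional and 101, 19.5, 21.2, 104 and 45.3 in lesional libraries. Tchhl1 had 182, 17.5, 14.8, 13.5 and 46.9 CPM in WT, 6.66, 14.9, 9.07, 7.61 and 19.3 in non-lesional and 38.4, 10.8, 9.99, 38.6 and 16.6 in lesional libraries. WT 1 was the highest library for both. The summed level of hair shaft and inner root sheath keratins (9 of 10 listed genes measured, none at 0 in all libraries; Krt85 was not used here) was 363 CPM in WT 1 and 51.5 in WT 13, and 4.05 to 21.7 in the other 13 libraries. The part of hair RNA in the Tchh and Tchhl1 difference was not tested. Their log2 fold changes of non-lesional against WT were -3.04 (SE 1.24, unadjusted p = 0.0388) and -2.28 (SE 0.90, unadjusted p = 0.0335), and without WT 1 they were -0.69 (SE 0.54) and -1.03 (SE 0.48). In lesional 2 and 11, Tchh was at 101 and 104 CPM while the hair keratins were at 21.7 and 5.51. For Tchh against WT in lesional skin, the log2 fold change of -1.98 (SE 1.26) became 0.38 without WT 1. Crnn (cornulin) had 4.62 CPM in WT 1 and at most 0.900 in every other library, where a count of 0 cannot be told from such levels.

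**Figure D3:**
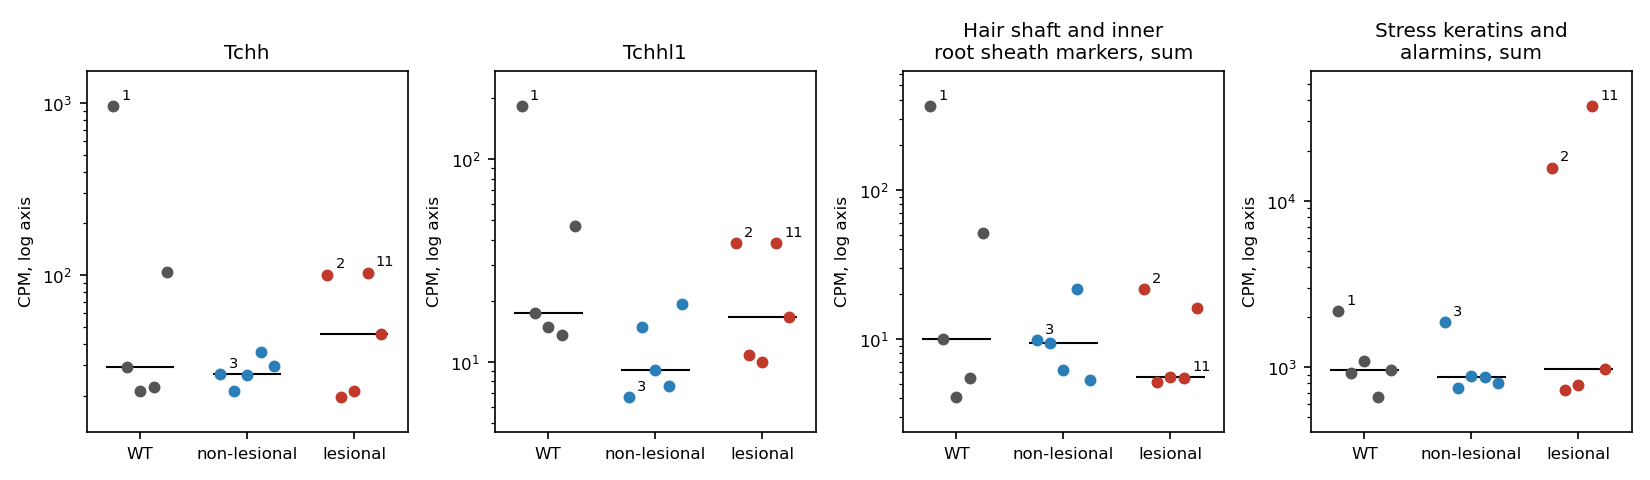
CPM on log axes of Tchh and Tchhl1, of the summed hair shaft and inner root sheath markers and of the summed stress keratins and alarmins, in each library by group (line, group median, n = 5). WT 1 is highest in the first 3 panels, and lesional 2 and lesional 11, at 15800 and 36940 CPM, are highest in the last.

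In lesional against WT skin, 18 of the 43 genes had an unadjusted p under 0.05 and a higher level (41.9%), where 3.3% of all 20292 genes did. Sprr2a3, Sprr2b, Sprr2g and Sprr2j-ps had under 10 counts in the WT and non-lesional libraries together. They were tested only through the lesional libraries in which they were high, so a higher lesional level was favoured in advance. Over the other 39 genes the count was 15 (38.5%), where 2.92% of the 19244 genes with at least 10 counts in those libraries did, a condition chosen after the data were seen. The 18 were 8 Sprr2 genes (Sprr2a3, Sprr2b, Sprr2d, Sprr2e, Sprr2f, Sprr2g, Sprr2h and Sprr2i), Sprr1b, Lce1e, Lce1g, Lce1k and all 6 Lce3 genes. 1 gene, Crnn, had such a p and a lower level (2.33%, against 1.78% of all genes), which is 2.56% of the 39 genes, against 1.88% of the 19244. Of its 18 counts, Crnn had 15 in WT libraries. The median log2 fold change was 1.02 over the 43 genes and -0.01 over all genes tested. It was 7.39 over 9 Sprr2 genes, 6.44 over 6 Lce3 genes, 0.25 over 15 Lce1 and Lce6a genes and -0.47 over 7 S100-fused genes. These medians stayed the same with the genes at 0 in WT set to their lower bound. Over the 39 genes the median was 0.87. Without lesional 2 and 11, 29 of the 43 genes had over 3 counts both in the remaining lesional libraries and in WT, and their median went from 0.39 to 0.02 (19 and 16 above 0). It was 0.08 over the 15 Lce1 and Lce6a genes and went from -0.13 to -0.51 over 6 S100-fused genes. Of 9 Sprr2 genes 2, and of 6 Lce3 genes 1, had that many counts, so no median is given for these families; lesional 5, 8 and 14 held 17, 5 and 9 counts over all Sprr2 genes and 13, 6 and 4 counts over all Lce3 genes. The count of 19 genes in both directions was 10 to 12 (23.3% to 27.9% of the 43) without any 1 of lesional 2, lesional 11, WT 1, WT 4 and WT 10, where 3.22% to 4.17% of all genes had such a p.

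Between lesional and non-lesional skin, 14 of the 43 genes had an unadjusted p under 0.05 and a higher level in lesional skin (32.6%), against 2.76% of all genes. Without the 4 genes that were tested only through the lesional libraries, it was 10 of 39 (25.6%), against 2.41% of 19244 genes. The 14 were all 9 tested Sprr2 genes, Sprr1b, Lce3b, Lce3d, Lce3e and Lce3f. None of the 43 had such a p and a lower level, against 1.58% of all genes and 1.66% of the 19244. The log2 fold change was 3.96 (SE 1.72) for Sprr2h, 5.57 (SE 2.19) for Sprr1b, 5.69 (SE 2.08) for Sprr2d and 4.47 (SE 1.95) for Lce3e, and -0.24 (SE 0.27) for Lor. The median log2 fold change was 0.99 over the 43 genes (31 above 0), 0.85 over the 39 and 0.00 over all genes. Without lesional 2 and 11, the median over the 30 genes with over 3 counts in both groups turned from 0.36 to -0.20, with 19 and 8 genes above 0. The count of 14 was 1 to 3 (2.33% to 6.98% of the 43) without any 1 of lesional 2, lesional 11 and non-lesional 6, 9, 12 and 15, where 2.88% to 3.14% of all genes had such a p, so that the share of the complex came near that of the table.

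Non-lesional against WT skin addresses whether the complex differs where no lesion is seen. Here 4 of the 43 genes had an unadjusted p under 0.05 and a higher level (9.3%: Sprr2d, Sprr2i, Lce1g and Lce3e), against 1.81% of all genes. Another 3 had a lower level (6.98%: Crnn, Tchh and Tchhl1), against 1.73%. The median log2 fold change was 0.30 over the 43 genes and -0.01 over all genes, and 0.24 when genes at or under 3 counts in both groups were left out and those at 0 in WT set to their bound. Without non-lesional 3, 0 of the 43 genes had an unadjusted p under 0.05, where 3.77% of all genes had. Without non-lesional 6, 17 had (39.5%), where 3.35% of all genes had, and in that fit 8 genes of the table, none of them in the complex, passed the adjusted threshold. Both comparisons with WT share the WT libraries, and both comparisons with lesional skin share the lesional libraries, so their counts are not independent.

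**Figure D4:**
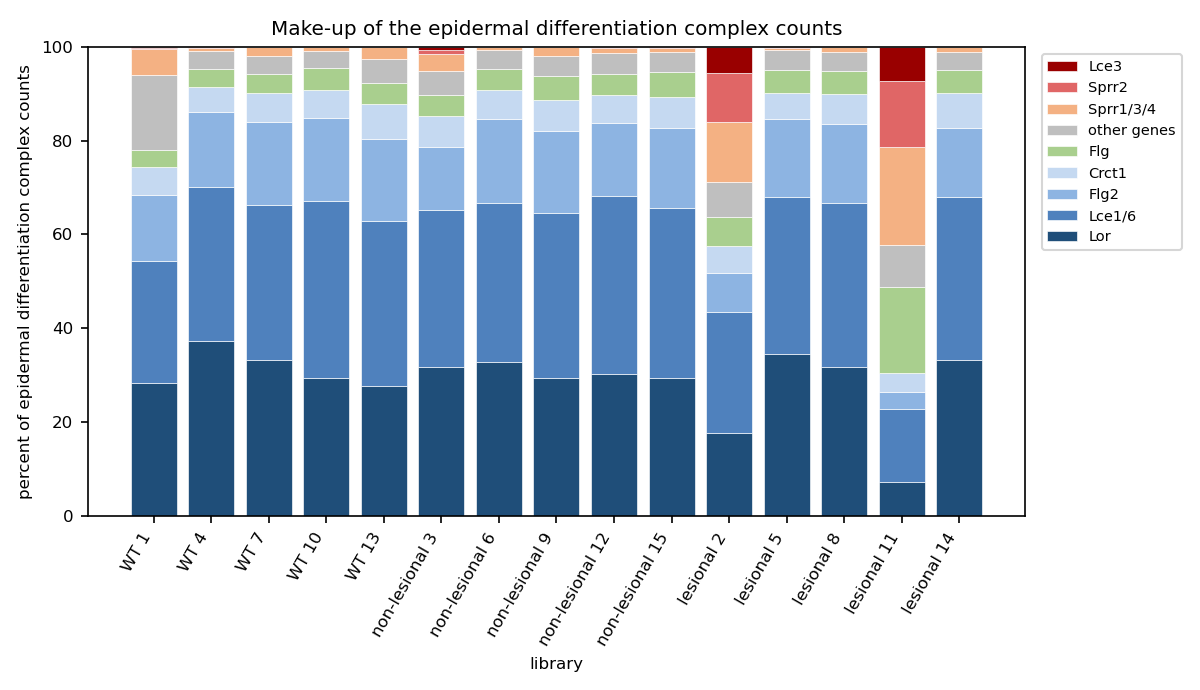
Percent of the counts of the complex (y axis, 0 to 100) taken by Lor, Lce1 and Lce6a, Flg2, Crct1, Flg, other genes, Sprr1, Sprr3 and Sprr4, Sprr2 and Lce3 in each of the 15 libraries. In lesional 2 and lesional 11 the Sprr and Lce3 bars fill a large part, and the Lor bar is at 17.6 and 7.21%.

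The total of the complex was highest in lesional 11 (11840 CPM) and lesional 2 (10040 CPM), against 7283 to 9863 CPM in the other 13 libraries, and its make-up differed in the same 2 libraries. Lor made up 27.8% to 37.3% of the counts of the complex in 13 libraries, 17.6% in lesional 2 and 7.21% in lesional 11. Sprr1, Sprr3 and Sprr4 genes together took 12.8% in lesional 2 and 20.8% in lesional 11, against at most 5.49% elsewhere. Sprr2 genes took 10.4% and 14.1%, against at most 0.741% elsewhere, and Lce3 genes 5.58% and 7.31%, against at most 0.726%. Flg took 18.4% in lesional 11 and 3.56% to 6.16% in the other libraries. These are shares of a total, so a larger share of one gene lowers the others.

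The proteins that join and process these building blocks were a list of 18 genes, of which 17 were in the table and 16 were tested (Lelp1 had 0 counts in every library, and Pi3 was not used here). None had an adjusted p under 0.05 in any comparison. At an unadjusted p under 0.05, 1 was higher and 1 lower between non-lesional and WT, 0 between lesional and WT, and 3 were higher between lesional and non-lesional skin. Between non-lesional and WT skin these are 6.25% of the 16 in each direction, against 1.81% higher and 1.73% lower of all genes, and the last 3 are 18.8%, against 2.76%. The 0 between lesional and WT skin stands against 3.3% higher and 1.78% lower of all genes. The first 2 were Tgm1 and Tgm3 and the last 3 Tgm3, Evpl and Casp14, named here after their values were seen. Their summed level was 8184 CPM in lesional 2 and 10840 in lesional 11, and 4008 to 6089 in the other 13 libraries. Klk7, a protease that sheds corneocytes, had 2606 and 3973 CPM in lesional 2 and 11 and 496 to 964 elsewhere. Asprv1, a protease that cuts profilaggrin, had 712 and 1118 CPM there and 385 to 911 elsewhere, and Spink5, an inhibitor of Klk7, had 2673 and 2967 and 1675 to 2483 elsewhere.

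The transcription factors known to act on the complex were a list of 16 genes, all tested. None had an adjusted p under 0.05, and 2 were higher between lesional and WT and 1 between lesional and non-lesional skin at an unadjusted p under 0.05 (Grhl3 and Fosl1, and Fosl1 again, named after their values were seen, as are the further factors below). These are 12.5% and 6.25% of the list, against 3.3% and 2.76% of all genes. Klf4, which drives barrier formation, was at 154 to 267 CPM and Trp63, the p63 gene, at 154 to 259 CPM over the 15 libraries. Gata3 was at 211 CPM in lesional 11 and 233 to 312 in the others. The summed level of the 16 was 2998 CPM in lesional 11 and 2279 in lesional 2, and 1413 to 2005 in the other 13 libraries. Lesional 2 and 11 were the highest pair for 9 of the 16 (Grhl1, Grhl3, Ovol1, Prdm1, Nfe2l2, Fosl1, Jun, Junb and Cebpb) and the lowest pair for Gata3, against 7.94% and 5.07% of all genes tested. Junb, a part of AP-1, had 157 and 357 CPM in lesional 2 and 11 and 23.9 to 67.5 elsewhere, with a log2 fold change against WT of 1.42 (SE 0.72). Fosl1, another part of AP-1, had 7.23 and 12.5 CPM there and at most 3.71 elsewhere, with 2.20 (SE 0.75, unadjusted p = 0.00974).

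Genes of other cells and states moved with the same libraries, and their part in the results was not tested. The summed level of 6 stress keratins and alarmins was 15800 CPM in lesional 2 and 36940 in lesional 11, and 659 to 2179 in the other 13 libraries. Of these, Krt6b had 3516 and 8725 CPM in lesional 2 and 11, 220 in non-lesional 3 and at most 16.9 elsewhere, and Krt6a had 4951 and 15400 against 228 to 1179 elsewhere. Basal keratinocyte markers (8 of 8 genes measured) summed to 12040 CPM in lesional 11, 8384 in lesional 2 and 6592 to 8427 in the rest. Krt14 and Krt5 carried this sum in lesional 11, with 5927 and 4321 CPM, and were highest in lesional 2 and 11, while Krt15, Dst and Col17a1 were lowest in the same pair (637, 267 and 185 CPM in lesional 11). Suprabasal markers (8 of 8) summed to 7785 to 13890 CPM, lowest in lesional 11, where Krt10 was at 1368 CPM (1051 in lesional 14, the lowest) and Krt77 at 1013 CPM, the lowest of the 15. Krt1 (615 CPM) and Dsc1 (278 CPM) were highest there, with lesional 2 next. Both lists thus held members that were high and members that were low in lesional 11. Keratinocyte markers were thus present in all 15 libraries.

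Markers of non-keratinocyte cells were read in the same way. Skeletal muscle genes (8 of 8) summed to 3298 CPM in lesional 11 and 14250 to 32700 elsewhere, and fibroblast genes (6 of 6) to 16380 CPM in lesional 11 and 25900 to 67660 elsewhere. Neutrophil genes (8 listed, with Csf3r, Ly6g and Mpo at 0 in every library) summed to 18.0 CPM in lesional 11, 5.42 in lesional 2 and 0 to 1.65 elsewhere. Macrophage genes (8 of 8) summed to 367 to 782 CPM, and lesional 2 and 11 were the highest pair for 2 of them, C1qa (119 and 142 CPM, 43.9 to 102 elsewhere) and Mrc1 (149.5 and 133 CPM, 63.8 to 118 elsewhere). This pair was the highest for 7.94% of all genes tested. C1qa, a complement gene of macrophages, is named here after its values were seen. Its log2 fold change was 0.57 (SE 0.25, unadjusted p = 0.0348) against WT and 0.48 (SE 0.20, unadjusted p = 0.0259) against non-lesional skin. At an unadjusted p under 0.05, 1 of the 8 genes was higher against WT, where 3.3% of all genes were. Against non-lesional skin 2 of the 8 were higher, where 2.76% of all genes were, and none was lower in either comparison. The median log2 fold change of the 8 was 0.171 against WT and 0.084 against non-lesional skin. Sebaceous gland genes summed to 911 to 1708 CPM and adipocyte genes to 1344 (lesional 11) to 3751 CPM. In bulk skin, more cells of a type and more RNA per cell cannot be told apart, nor can the share of epidermis in a sample from its state.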

How the data were processed

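Skin RNA of 15 libraries (5 WT, 5 non-lesional, 5 lesional) was sequenced with the QuantSeq 3′ FWD kit. The authors clipped adaptors with cutadapt 2.10, mapped reads to GRCm38 with subread-align, kept uniquely mapping matches with SAMtools 1.7-2 and counted exon overlaps with featureCounts 2.0.1. Reads that overlap more than 1 gene count towards each. The strand setting and annotation release are not given in the sources used here. The deposited counts are raw, and the deposited table of CPM was not used. The methods give the same RNA integrity limit both as a ground for exclusion and as a property of the samples used, so RNA quality is uncertain and its part in the values was not tested. Groups were taken from the labels. The 92 spike-in rows held 0 counts and were left out.

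CPM used TMM factors over all 15 libraries. Each pair of groups was fitted with edgeR 4.0.16 (R 4.3.3, TMM, robust quasi-likelihood F-test) on 20292 genes with at least 10 counts over the 15 libraries, with Benjamini-Hochberg adjustment and a threshold of 0.05. SE is the absolute log2 fold change over the square root of F. No fitted fold change is given for a single gene where a group held at most 3 counts, and ratios of summed counts carry exact 95% counting intervals. PCR copies were not removed, so such intervals cover counting error only. The fit was tested on simulated counts.

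The gene set and lists were chosen with earlier results of these data known. Named were the 10 single genes, the 4 Sprr and 4 Lce genes highest in CPM, the 4 with the largest change in each comparison, and up to 3 genes of each list by CPM; further members appear where a group is spelled out. Shared 3′ ends are 50-base stretches of the last 300 bases of each transcript in GENCODE vM21. Alternatives were DESeq2 1.42.0, its size factors, other filters, all 15 libraries in 1 fit, no robust estimation, each replicate left out, and lesional 2 and 11 left out together. Leaving out genes with under 10 counts in WT and non-lesional libraries together was added after seeing the data.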

Additional observations from a re-analysis of the deposited data

Results flagged for a closer look

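On the scale of log2(CPM + 0.5), 29 named genes of the complex in each of 3 groups gave 87 groups of 5 libraries, of which 11 had no value of 1 CPM and 76 were examined. Of the 76, 5 held a library whose gap to its nearest neighbour was over 0.71 of the range of the group, where chance gives about 1 in 20. Flg was at 2182 CPM in lesional 11, where the other 4 lesional libraries were at 380 to 618. Non-lesional 3 stood above the other non-lesional libraries for Lce3d (4.44 CPM), Lce3e (7.10 CPM) and Lce3f (7.10 CPM). Lce3a was at 1.15 CPM in WT 1, which is 3 counts, with 0 counts in the other 4 WT libraries, and such a level cannot be told from 0 at this depth. The pairs of high values in lesional 2 and lesional 11 are not picked out in this way, since each is the neighbour of the other.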

How the results depend on the processing

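With edgeR's quasi-likelihood test, 0 genes of the complex had an adjusted p under 0.05 in every setting run, and with DESeq2's Wald test also 0. Over the whole table the calls between non-lesional and WT went from 0 to 17 with all genes of at least 1 count, to 3 with DESeq2 and to between 0 and 8 with a replicate left out (8 without non-lesional 6), and between lesional and WT to 14 with DESeq2. Genes of the complex at an unadjusted p under 0.05 between non-lesional and WT went from 7 (16.3% of the 43, with 3.54% of all genes tested; the percents that follow are in this order) to 3 with all 15 libraries in 1 fit (6.98%; 2.4%), with DESeq2 (6.98%; 2.36%) and with edgeR's filterByExpr (11.5% of 26; 3.15%), to 18 with at least 1 count (40.9% of 44; 4.32%), to 11 without robust estimation (25.6%; 3.76%) and to between 0 and 17 with a replicate left out (0.0% to 39.5%; 2.92% to 4.78%). Between lesional and WT, 19 (44.2%; 5.09%) became 7 with filterByExpr (25.9% of 27; 4.81%), 4 without lesional 2 and 11 (9.3%; 3.38%), and 10 to 24 with a replicate left out (23.3% to 55.8%; 3.22% to 7.27%). Between lesional and non-lesional, 14 (32.6%; 4.34%) became 3 with filterByExpr (11.1% of 27; 4.22%), 22 without robust estimation (51.2%; 5.0%), 3 without lesional 2 and 11 (6.98%; 3.84%), and 1 to 20 with a replicate left out (2.33% to 46.5%; 2.88% to 7.02%). Over genes with at least 10 counts outside the lesional libraries, a condition added after seeing the data, these 2 counts were 16 and 10. Lesional 2 and 11 were singled out for their values, so the counts without both are no test of a lower level. The count of 19 between lesional and WT was 25 without robust estimation (58.1%, against 5.75% of all genes). With all 15 libraries in 1 fit it was 24 (55.8%, against 7.16%), and with DESeq2 it was 23 (53.5%, against 4.74%). filterByExpr tests fewer low genes; the other causes were not tested.

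Of 1065 values of named genes under alternatives, 1009 kept their direction and 56 did not. Without lesional 2 and 11, the log2 fold changes against WT that turned were Lor 0.02, Sprr2h -1.69, Sprr1b -1.33, Sprr1a -1.56, Ivl -0.008, Lce1a2 0.12 and Rptn -0.87. Those against non-lesional skin were Lor 0.10, Sprr2d -1.18, Sprr2f -1.23, Sprr2h -1.99, Sprr1b -2.57, Sprr1a -0.93, Ivl -0.21, Lce1a1 -0.094, Lce1b 0.081, Lce1a2 0.16, Flg -0.004 and Rptn -0.84. Hrnr against non-lesional skin was 0.003 with DESeq2 and 0.002 with its size factors. With a replicate left out, values that turned ran, for non-lesional against WT, from -0.83 to 0.88 (Sprr2h), -0.36 to 2.62 (Sprr1b), -0.12 to 0.055 (Lce1a2), -0.23 to 0.38 (Lce3d), -0.15 to 0.074 (Crct1) and -0.69 to 0.20 (Rptn). For lesional against WT they ran from -0.075 to 0.20 (Lce1b), -0.35 to 0.026 (Lce1a2), -0.14 to 0.083 (Crct1) and -2.29 to 0.38 (Tchh). For lesional against non-lesional they ran from -0.052 to 0.14 (Lce1a1), -0.26 to 0.023 (Lce1b), -0.33 to 0.056 (Lce1a2), -0.094 to 0.074 (Crct1) and -0.056 to 0.076 (Hrnr). Settings that left a group with at most 3 counts gave no fold change. Whether samples of different groups share a mouse or a litter is not given sample by sample in the sources used here. No paired analysis was therefore run, and all SEs and p-values take the groups as unpaired. At this depth, levels under about 1.54 CPM cannot be told from 0.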
